A study of Mus musculus with 62 samples.

Results

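Cells of 1 culture were compared at the top and the bottom of their own range of Cxcl5 expression. Cells were chosen by their measured Cxcl5 level alone. The 12 single-cell libraries with the most Cxcl5 mRNA were set against the 12 with the least. The ranking covered 50 of the 62 libraries of the series, those in which the synthetic ERCC spike-in RNAs took under 20% of all counts. Libraries were ordered by Cxcl5 in CPM, counts scaled to a common total of gene counts. The 12 highest are called Cxcl5-high cells, the 12 lowest Cxcl5-low cells, and the 26 ranked between them intermediate cells.

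All 62 libraries came from KPC1199-EGFP, a mouse pancreatic cancer line on a C57BL\6 background that expresses EGFP. The cells grew attached, untreated, at passage 9, and served the study as a cultured control for tumour cells recovered from mice. They were trypsinised, captured singly and amplified on a Fluidigm C1 chip. Both groups therefore share the line, the passage, the medium and the chip, and were chosen by rank alone. With 1 culture, cells are not replicates of a condition. For this reason no p-value is given, and each SD is the spread over cells.

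Cxcl5 encodes a small secreted protein of the ELR-positive CXC chemokines, which draw neutrophils through the receptor Cxcr2. Genes of this family lie side by side in the mouse genome. Epithelial and tumour cells switch them on through NF-kB after interleukin-1, TNF, interleukin-17 or bacterial products, with C/EBP factors acting on some of the same promoters. In pancreatic cancer, tumour cells are a known source of Cxcl5.

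Cxcl5 differed widely between cells of the culture. These values chose the groups and are given as a description. In the Cxcl5-high cells the lowest value was 758 CPM, the median 1279.5 and the highest 4072. The intermediate cells lay between 75.3 and 740.6 CPM, with a median of 208.5. In the Cxcl5-low cells the median was 21.8 CPM and the highest value 62.2. The distribution had no gap at either threshold: ranks 12 and 13 stood at 758.0 and 740.6 CPM, and ranks 38 and 39 at 75.3 and 62.2. Within the low group, 8 cells held 18.2 CPM or more, 2 held 1.1 and 0.2, and 2 were at 0. On the log2(CPM + 1) scale the means were 10.49 ± 0.69 (SD, n = 12) and 3.42 ± 2.34 (SD, n = 12). Most Cxcl5-low cells thus held Cxcl5 counts, and 48 of the 50 libraries had a value above 0.

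**Figure D1:**
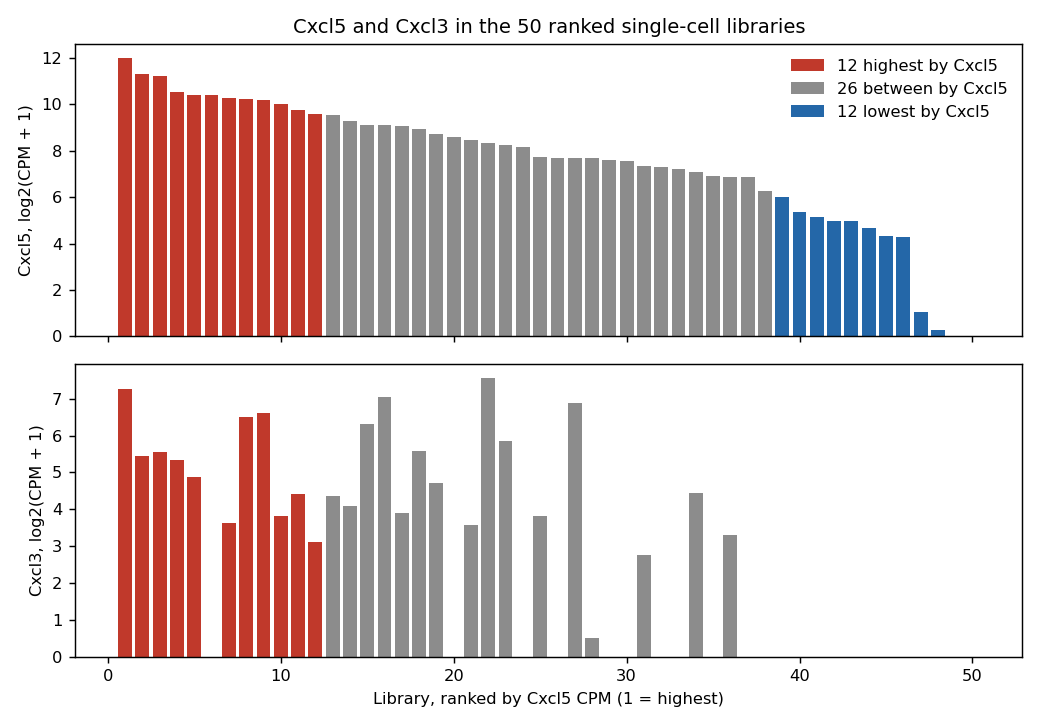
Bars give log2(CPM + 1) of Cxcl5 (upper panel) and Cxcl3 (lower panel) in each of the 50 libraries, ordered by Cxcl5 from the highest at rank 1 to the lowest at rank 50, with colours for the 3 groups. Cxcl5 declines without a break until the last 4 libraries, and Cxcl3 is at 0 in all 12 Cxcl5-low cells and above 0 in 11 of the 12 Cxcl5-high cells.

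The groups were close in some technical measures and differed in others. Gene counts per library ranged from 2153900 to 12868800 over the 50 libraries, with medians of 6914160 in the Cxcl5-high and 9014700 in the Cxcl5-low cells. A median of 8408 genes was detected in the Cxcl5-high and 8510.5 in the Cxcl5-low cells. After thinning every library to 2000000 gene counts the medians were 8124.5 and 7882.5. The spike-in share had medians of 0.707% and 0.749%, but means of 0.672% and 0.923% and highest values of 1.15% and 1.83%. Gene counts per spike-in count, on the log2 scale, had medians of 7.14 and 7.05 and means of 7.32 and 6.90. When label numbers were cut into 8 blocks of 12, the Cxcl5-high cells fell in 7 blocks and the Cxcl5-low cells in 7. The mean level of the G2 and M phase list had a median of 7.25 in the Cxcl5-high and 6.09 in the Cxcl5-low cells on the log2 scale, and that of the S phase list 6.15 and 6.40.

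A gene was called when the group means of log2(CPM + 1) differed by 1 or more and at least 75% of the 144 pairs of 1 high and 1 low cell were ordered the same way, ties counting as 0.5 of a pair. Of 12011 other genes above 0 in at least 10 libraries, 208 (1.73%) were called higher and 102 (0.849%) lower in the Cxcl5-high cells, 2.58% in either direction. No gene separated the groups completely, in either direction (0%). The median difference over all measured genes was 0.07, and 6650 of the 12011 had a positive one. When libraries were scaled by their spike-in counts in place of their gene counts, this median moved to 0.33 and the split of calls to 440 higher and 25 lower.

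**Figure D2:**
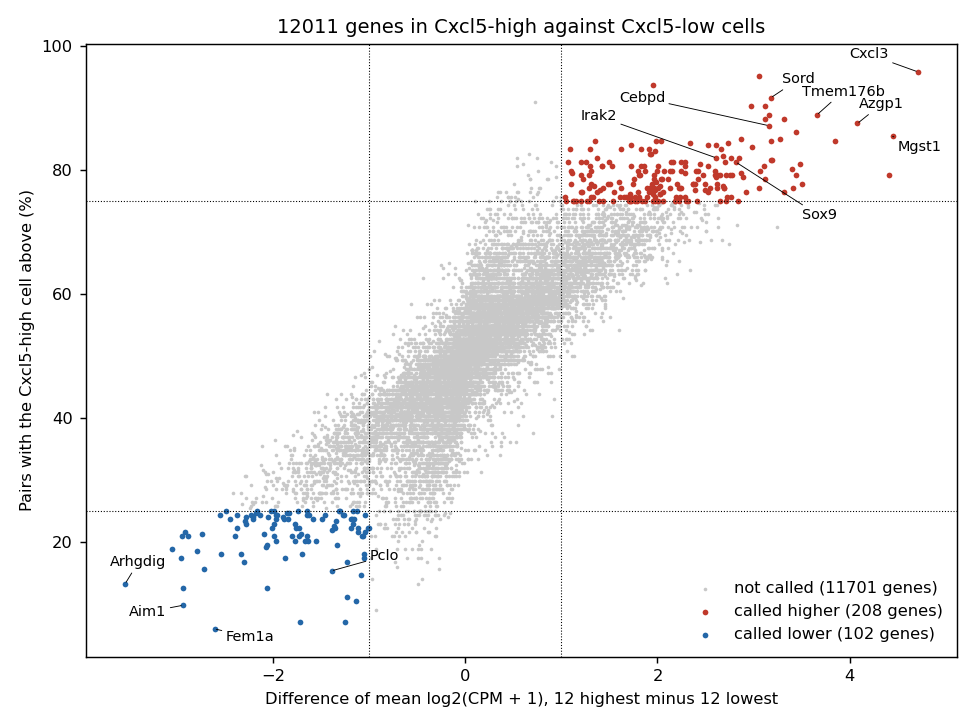
Each point is 1 of 12011 genes, with the difference of mean log2(CPM + 1) between the 12 Cxcl5-high and 12 Cxcl5-low cells on the x axis and the percent of the 144 cell pairs in which the Cxcl5-high cell was above on the y axis. Dotted lines mark the thresholds; red points are the 208 genes called higher and blue points the 102 called lower, with Cxcl3 farthest to the upper right.

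Cxcl3, another ELR chemokine that acts through Cxcr2, showed the largest difference of all measured genes. Its lowest value in the Cxcl5-high cells was 0 CPM, the median 33.9 and the highest 153, and it was at 0 in every Cxcl5-low cell. Counts above 0 were found in 11 of 12 Cxcl5-high cells (91.7%, exact Clopper-Pearson 95% interval 61.5 to 99.8). They were found in 0 of 12 Cxcl5-low cells (upper limit 26.5%). These intervals treat the cells as random draws. Cells chosen by rank from 1 culture are not, so the intervals show only how few cells were counted. The means were 4.71 ± 1.95 and 0 ± 0 (SD, n = 12 each). The 12 high cells together held 3993 counts of Cxcl3 and the 12 low cells none. Its share of the group's pooled gene counts was thus at least 1733-fold higher, taking 3 counts over the low group as the floor. Reads carry no molecular identifiers, so this fold is one of reads and sets no lower limit for RNA molecules. Only library 7 of the Cxcl5-high cells lacked Cxcl3, so that 1 high cell was tied with the low cells.

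The intermediate cells, which the comparison did not use, tended to carry Cxcl3 more often with more Cxcl5. The order was loose, as the highest Cxcl3 value of the 50 cells, 187 CPM, was in library 45 at rank 22. Cxcl3 was above 0 in 11 of the 13 intermediate cells with more Cxcl5 and in 5 of the 13 with less. Their median values were 19.7 and 0 CPM. Spearman's rho of Cxcl3 with Cxcl5 over the 26 cells was 0.59, as a description of cells from 1 culture. In all, 27 of the 50 cells had Cxcl3. The transcripts of Cxcl3 and Cxcl5 share no run of 31 bases in the GENCODE M21 annotation, which is not the one the authors used. Cxcl3 does share 161 such runs with Cxcl2, so the division of reads between those 2 genes is uncertain. The Cxcl2 row was at 0 in all 50 libraries.

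Cxcl1, an ELR chemokine of the same gene cluster that shares the receptor, did not meet the call. Its Cxcl5-high values ran from 0 to 223 CPM with a median of 30.9, and its Cxcl5-low values from 0 to 230 with a median of 0. Cxcl1 was above 0 in 8 Cxcl5-high and 5 Cxcl5-low cells, the means were 3.93 ± 3.14 and 2.34 ± 3.04, and the high cell was above in 63.9% of pairs. The ranges overlapped almost entirely. Over the intermediate cells rho with Cxcl5 was -0.04. Of the Cxcl5-high cells, 7 had both Cxcl3 and Cxcl1, 4 had Cxcl3 alone and 1 had Cxcl1 alone. Of the Cxcl5-low cells, 5 had Cxcl1 without Cxcl3 and 7 had neither.

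The promoters of Cxcl3 and Cxcl1 are printed because Cxcl3 was called and Cxcl1, of the same cluster, was not. The sequences are RefSeq's for GRCm38.p6, the 250 bases before each annotated start, on the plus strand, at chr5:90785851-90786100 for Cxcl3 and chr5:90890995-90891244 for Cxcl1. Capitals mark matches to the kB consensus, the site form bound by NF-kB, searched on both strands.
Cxcl3: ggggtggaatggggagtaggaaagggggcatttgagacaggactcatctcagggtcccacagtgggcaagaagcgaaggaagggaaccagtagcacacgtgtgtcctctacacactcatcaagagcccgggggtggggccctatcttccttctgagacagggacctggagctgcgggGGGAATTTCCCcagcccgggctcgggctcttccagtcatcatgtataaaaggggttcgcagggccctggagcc
Cxcl1: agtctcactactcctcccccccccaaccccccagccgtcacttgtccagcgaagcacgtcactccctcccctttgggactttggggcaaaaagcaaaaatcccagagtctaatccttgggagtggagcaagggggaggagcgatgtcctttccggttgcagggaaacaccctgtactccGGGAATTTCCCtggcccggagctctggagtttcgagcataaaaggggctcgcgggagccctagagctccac
Both promoters held the same 11 bases, GGGAATTTCCC, in which a match on the plus strand and one on the minus strand overlap by all but 1 base each. The plus-strand match lay 73 to 64 bases before the start in Cxcl3 and 71 to 62 in Cxcl1. Of 32851 promoter windows of the same length, 7.25% held a kB match. The Cxcl2 promoter held the same match 97 to 88 bases before its start, although the Cxcl2 row was at 0 in all 50 libraries. No match to the C/EBP form TTNCNNAA (36.8% of windows) or the AP-1 form TGANTCA (6.75%), on either strand, was found in the Cxcl3 or the Cxcl1 window. A TATAAA box, found in 12.4% of windows, lay 30 to 25 bases before the Cxcl3 start. The window of Cxcl15, which was not called, held one 27 to 22 bases before its start. The Cxcl1 window had no exact match, but reads cataaa, 1 letter different, at a similar place. The matches are letters in a window and do not show binding, and no Cxcl5 promoter was analysed here.

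In RefSeq's gene order Cxcl5 is followed by Ppbp, Pf4, Cxcl3, Cxcl15, Cxcl1 and Cxcl2. Ppbp was above 0 in 3 Cxcl5-high and 0 Cxcl5-low cells and in 9 of the 50 libraries, under the minimum for a measured gene. Pf4 was above 0 in 2 cells, both Cxcl5-high. Cxcl15 was above 0 in 6 cells of each group, with medians under 0.1 CPM and highest values of 230 CPM in the Cxcl5-high and 1.09 in the Cxcl5-low cells, and shares 2 runs of 31 bases with Cxcl3. Rassf6, the gene on the other side of Cxcl5 and chosen for that place, stood at 6.54 ± 0.57 and 4.88 ± 2.52 and was above the low cell in 69.4% of pairs, short of the call. Among receptors, the Cxcr2 row was above 0 in all 50 libraries at 4.30 ± 1.38 in the Cxcl5-high and 3.88 ± 0.96 in the Cxcl5-low cells, and the groups overlapped. The Cxcr1 row was at 0 in all 50. Of the 4 measured genes of the ELR family and its receptors all 4 had a positive difference, with a median of 1.24. Only Cxcl3 was called, where 1.73% of all genes were called higher.

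Among 18 measured chemokines and myeloid factors outside the ELR family, 16 had a positive difference, against 6650 of all 12011 genes, with a median of 0.52. A single one was called higher, where 1.73% of all genes were. That gene was Vegfa, a growth factor for blood vessels. Its values ran from 16.6 to 133 CPM (median 46.1) in the Cxcl5-high and from 0 to 62.7 (median 11) in the Cxcl5-low cells. The means were 5.45 ± 0.97 and 2.93 ± 2.11, with 84% of pairs in that order. Over the intermediate cells, however, rho of Vegfa with Cxcl5 was -0.31. Ccl20, which attracts CCR6-bearing lymphocytes and dendritic cells, had a difference of 2.56 but was above 0 in 6 and 2 cells and was not called. Ccl25 had the most negative difference of the list, -0.13. Of the 43 listed genes with a row, 12 were at 0 in all 50 libraries, among them Ccl3, Ccl4, Ccl7 and Il6.

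Of 29 measured receptors and adaptors of the interleukin-1, TNF, interleukin-17 and Toll-like receptor pathways, which feed NF-kB, 21 had a positive difference, with a median of 0.65. Over all genes 6650 of 12011 were positive. Of the 29, 2 were called higher and none lower, beside 1.73% and 0.849% of all genes. Irak2, a kinase-like protein that joins the interleukin-1 and Toll-like receptor complex, ran from 0.262 to 107 CPM (median 47.4) in the Cxcl5-high and from 0 to 71.4 (median 1.39) in the Cxcl5-low cells. Its means were 4.62 ± 2.29 and 2.01 ± 2.19, with 81.9% of pairs in that order. Most high cells stood above most low cells, and 3 high cells held under 4 CPM. Cd14, the co-receptor that hands lipopolysaccharide to Toll-like receptor 4 and is named here after its value was seen, was above 0 in 12 and 11 cells at 7.05 ± 0.89 and 5.09 ± 2.52. In the intermediate cells the order of Cd14 was the other way, with medians of 89.6 CPM in the 13 with more Cxcl5 and 133.7 in the 13 with less, and its call was lost with 16 against 16 cells and with label blocks centred. Myd88, the adaptor shared by these receptors, had the most negative difference, -1.98, with 6 high and 9 low cells above 0, and was not called.

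None of the 14 measured NF-kB subunits and inhibitors was called, beside 1.73% of all genes called higher and 0.849% called lower. A list of 14 without a call lies near those shares. Their median difference was 0.67 and 10 were positive, against 6650 of all 12011 genes. Nfkb1, which encodes p105 and p50, came closest to the call. It ran from 0 to 147 CPM (median 40.1) in the Cxcl5-high and from 0 to 74.1 (median 6.97) in the Cxcl5-low cells, a difference of 2.00 with 74% of pairs in that order. Relb, a subunit of the alternative pathway, had the most negative difference at -0.90. Nfkbia, the inhibitor that NF-kB itself induces, stood at 5.86 ± 1.40 and 5.77 ± 2.21. It was named after its value was seen, and its difference of 0.10 lay far inside the spread between cells.

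Of 21 measured NF-kB target genes 14 had a positive difference, against 6650 of all 12011 genes, with a median of 0.45. Of the 21, 3 were called higher and none lower, beside 1.73% and 0.849% of all genes. A pair of them encode C/EBP factors. Cebpd, a C/EBP factor induced early in inflammation, was above 0 in 11 and 9 cells, but at very different levels. Its Cxcl5-high values ran from 0 to 145 CPM with a median of 23.1, and its Cxcl5-low values from 0 to 13 with a median of 0.184. The means were 3.96 ± 2.47 and 0.80 ± 1.31, and 87.2% of pairs were in that order. Only 2 low cells held more than 1 CPM. Cebpb, which binds the same sites and was named after its value was seen, was above 0 in all 24 compared cells at 7.17 ± 1.42 and 5.4 ± 1.41, with 75.7% of pairs in that order. Leaving out any single one of 12 of the 24 cells took Cebpb under the threshold. Cflar, an inhibitor of caspase 8, was the third, at 6.27 ± 1.09 and 5.12 ± 1.43 with 75% of pairs, on the threshold. It met the call in 11 of 24 comparisons with 1 cell left out and in 6 of 13 other settings. Ccnd1 had the most negative difference, -0.72. Over the intermediate cells rho with Cxcl5 was -0.04 for Cebpd and 0.02 for Cebpb.

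**Figure D3:**
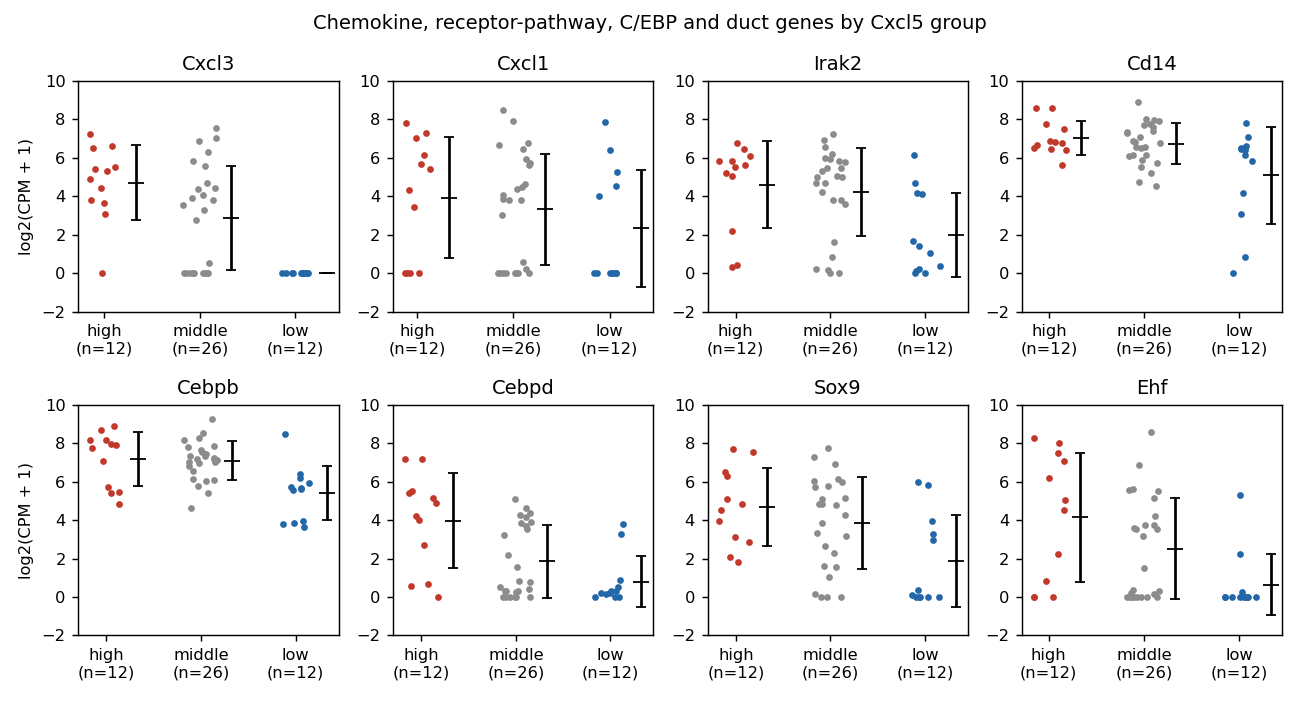
Points give log2(CPM + 1) per cell for 8 genes in the Cxcl5-high (n = 12), intermediate (n = 26) and Cxcl5-low (n = 12) cells; the black bar beside each cloud is the mean with its SD over cells, which may reach below 0. Cxcl3 is at 0 in every low cell, Cebpd is above 1 in only 2 low cells, and Cxcl1 covers the same range in the high and the low cells.

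Beyond Cxcl3, the genes with the largest positive differences lay outside the chemokine and NF-kB lists. Mgst1, a membrane glutathione transferase, was above 0 in all 12 Cxcl5-high cells and in 6 Cxcl5-low cells. Its values ran from 61.1 to 767 CPM (median 234) and from 0 to 333 (median 5.86). The means were 7.75 ± 1.10 and 3.3 ± 3.66. Of the 12 low cells 3 lay within the range of the high cells and 6 were at 0.

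Azgp1, a secreted lipid-binding glycoprotein, was the other of the 15 genes named as higher that was at 0 in every Cxcl5-low cell. It was above 0 in 9 Cxcl5-high cells, with a median of 48.8 and a highest value of 336 CPM. With 6185 counts against none, its share of the pooled gene counts was at least 2685-fold higher by the same floor of 3 counts, again in reads only. Library 21 held both the highest Azgp1 value and the most gene counts of the Cxcl5-high cells, so it weighs most in that pool. Azgp1 was above 0 in 10 of the 13 intermediate cells with more Cxcl5 and 6 of the 13 with less, and rho was 0.26.

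Sord, which oxidises sorbitol to fructose, differed in level and not in presence. It was above 0 in all 50 libraries. Its Cxcl5-high values ran from 4.74 to 458 CPM (median 117) and its Cxcl5-low values from 1.77 to 70.6 (median 6.01). The means were 6.62 ± 1.66 and 3.44 ± 1.64, 91.7% of pairs were in that order, and rho over the intermediate cells was 0.42.

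Tmem176a and Tmem176b, neighbouring genes of related membrane proteins, were detected in the same cells. Both were above 0 in 12 of 12 Cxcl5-high, 24 of 26 intermediate and 8 of 12 Cxcl5-low cells, and no cell of the 50 had one without the other. Tmem176b ran from 233 to 1562 CPM (median 836) and from 0 to 692 (median 391). Tmem176a had means of 8.12 ± 0.65 and 4.80 ± 3.60. Their transcripts share 32 runs of 31 bases, so a part of the reads could be assigned to either.

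Regulators and enzymes made up the rest of the 15 genes named as higher, with differences from 3.19 to 3.85. The transcription factors were Ehf (9 high and 3 low cells above 0), Hhex (10 and 4), Zfp7 (11 and 3) and Stat6, which acts downstream of interleukin-4 and interleukin-13 (11 and 5). Ehf is an ETS factor of glandular epithelium, and Hhex is needed for the embryonic liver and pancreas. The enzymes were Fam20b, a kinase of proteoglycan linkers (12 and 5), Enpp2, the secreted enzyme autotaxin (8 and 3), Aspa, which cleaves N-acetylaspartate (10 and 5), and Ugt1a6a, a glucuronosyltransferase (11 and 5). Ugt1a6a shares exons with the rest of its cluster, and its count is uncertain for that reason. Trf, transferrin, completed the list. It ran from 1.82 to 5400 CPM in the Cxcl5-high cells (median 109) and from 0 to 246 in the Cxcl5-low cells (median 51.4). A few high cells with very high values shaped its mean, and its call was lost in 9 of 24 comparisons with 1 cell left out.

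The 102 genes called lower had differences from -3.54 to -1.0. Arhgdig had the most negative difference, -3.54. It ran from 0 to 60.7 CPM (median 0.0659) in the Cxcl5-high and from 0 to 179 (median 40.6) in the Cxcl5-low cells. For Aim1, the means were 2.34 ± 1.99 and 5.28 ± 1.54, and the high cell was above in 9.72% of pairs. Fem1a, a substrate receptor of a ubiquitin ligase, was nearly absent from the Cxcl5-high cells. It was above 0 in 1 of them, at 0.523 CPM, and in 11 Cxcl5-low cells with a median of 3.92 CPM. The high cell was above in 5.90% of pairs.

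The remaining 12 genes named as lower had differences from -3.06 to -2.5. Rbck1, part of the complex that builds linear ubiquitin chains in TNF signalling, was above 0 in 7 high and 12 low cells. Smad4, the shared mediator of TGF-beta and BMP signals, was above 0 in 10 and 12, at 2.80 ± 2.81 and 5.30 ± 1.43. With 25% of pairs it lay on the threshold, and it met the call in 12 of 24 comparisons with 1 cell left out. Pdlim1, which links actinin to the cytoskeleton, was above 0 in 9 and 12 cells. Adpgk, an ADP-dependent glucokinase, was above 0 in 3 and 10, and Sco1, needed to assemble cytochrome c oxidase, in 9 and 11. Nes, an intermediate filament protein of progenitor cells, was above 0 in 4 and 9, and Nkx2-3, a homeobox factor, in 7 and 11. Rhobtb3 was above 0 in 4 and 11, Mterf3 in 6 and 11, Fam193a in 3 and 11, and Paqr4 in 11 and 12. Hist1h2bc, above 0 in 8 and 11, belongs to a family of near-identical histone genes and is uncertain. Its call was met in 12 of 24 comparisons with 1 cell left out.

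**Figure D4:**
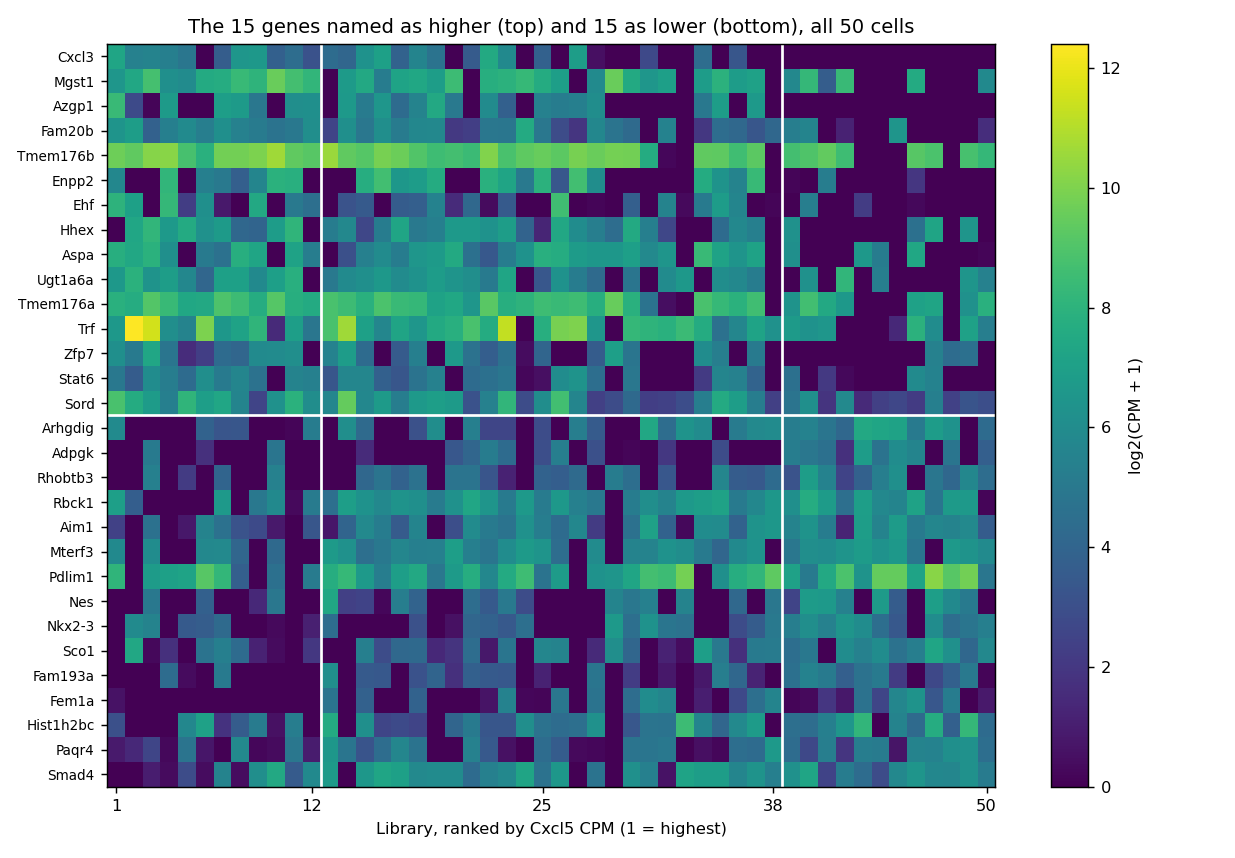
Colour gives log2(CPM + 1) of the 15 genes named as higher (above the horizontal line) and the 15 named as lower (below it) in all 50 libraries, ordered by Cxcl5; vertical lines bound the 12 Cxcl5-high cells on the left and the 12 Cxcl5-low cells on the right. The Cxcl5-high cells had 11 to 15 of the upper genes above 0 and the Cxcl5-low cells 2 to 10, while the intermediate cells spread from 4 to 15.

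Cell by cell, the 2 sets of named genes gave a mirror pattern that their choice fixed for the compared cells. Of the 15 genes named as higher, the Cxcl5-high cells had 11 to 15 above 0 (median 14) and the Cxcl5-low cells 2 to 10 (median 7). Of the 15 named as lower, the Cxcl5-high cells had 4 to 12 (median 8) and the Cxcl5-low cells 11 to 15 (median 14). The intermediate cells, which had no part in that choice, had 4 to 15 of the first set (median 13) and 5 to 15 of the second (median 11).

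In the 26 intermediate cells, 135 (64.9%) of the 208 genes called higher had a positive rho with Cxcl5, against 52.8% of all measured genes, and their median rho was 0.08. Of the 102 called lower, 51 (50%) had a positive rho, against the same 52.8%, and the median was -0.00. Besides Cxcl3 and Sord, Fam20b (rho 0.44) and Ugt1a6a (0.39) had the higher values among the 15 genes named as higher. The lowest values among the 15 were those of Mgst1 (0.05), Ehf (-0.09) and Aspa (-0.30). The genes most like Cxcl5 over these cells, by rho, were Bivm (0.74), Lpin2 (0.67), the stress-response factor Atf4 (0.66), Tnnt2 (0.65) and Ring1 (0.65). None of the 5 was called between the high and low cells. At the other end stood Phax (-0.69), Tomm6 (-0.65), Pclo (-0.64), Ccdc166 (-0.64) and Pafah1b3 (-0.64). Of these, Pclo was also called lower, at 0.40 ± 0.45 and 1.79 ± 1.65.

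The duct and the general epithelial lists had medians of opposite sign, and kept those signs in each of the 13 other settings run. Of 10 measured duct genes 8 had a positive difference, against 6650 of all 12011 genes, with a median of 1.02. Of the 10, 3 were called higher, Ehf, Sox9 and Spp1, beside 1.73% of all genes. Over the intermediate cells rho of Ehf with Cxcl5 was -0.09. Median Sox9 was 26.8 CPM in the 13 intermediate cells with more Cxcl5 and 13.2 in the 13 with less. Sox9, the factor that maintains duct cells, ran from 2.53 to 210 CPM (median 24.5) in the Cxcl5-high and from 0 to 62.7 (median 0.193) in the Cxcl5-low cells. Its means were 4.70 ± 2.02 and 1.88 ± 2.40. Sox9 was above 0 in 12 and 7 cells. Spp1, the secreted protein osteopontin, stood at 13.56 ± 1.48 and 11.62 ± 2.36, with 82.6% of pairs in that order. Sox9 and Spp1 were named after their values were seen. The duct keratin Krt7 went the other way, at 8.91 ± 3.02 and 10.32 ± 1.22, and was not called.

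Of 18 measured epithelial genes only 3 had a positive difference, with a median of -0.56, and none was called. Epcam had the most negative value, -1.78, with 4 high and 7 low cells above 0. The keratin genes Krt8 (10.69 ± 0.67 and 11.33 ± 0.50) and Krt19 (10.57 ± 0.81 and 11.18 ± 0.78), picked with their values known, had counts in every compared cell. Ocln had the largest positive difference, 1.97. Of 17 measured mesenchymal genes 9 were positive, against 6650 of all 12011 genes, and 2 were called higher, beside 1.73% of all genes. They were S100a4 (8.57 ± 1.02 and 7.02 ± 2.45) and Itga5 (above 0 in 9 and 2 cells). With 1 cell left out S100a4 met the call in 20 of 24 comparisons and Itga5 in 5, and in the 13 other settings they met it in 9 and 8. The median over that list was 0.32. Cyr61 had its most negative difference, -1.46. Among 13 measured injury and secreted epithelial genes, with a median of 1.01, Trf and Spp1 were called higher, beside 1.73% of all genes. Msln had the most negative difference, -1.40.

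**Figure D5:**
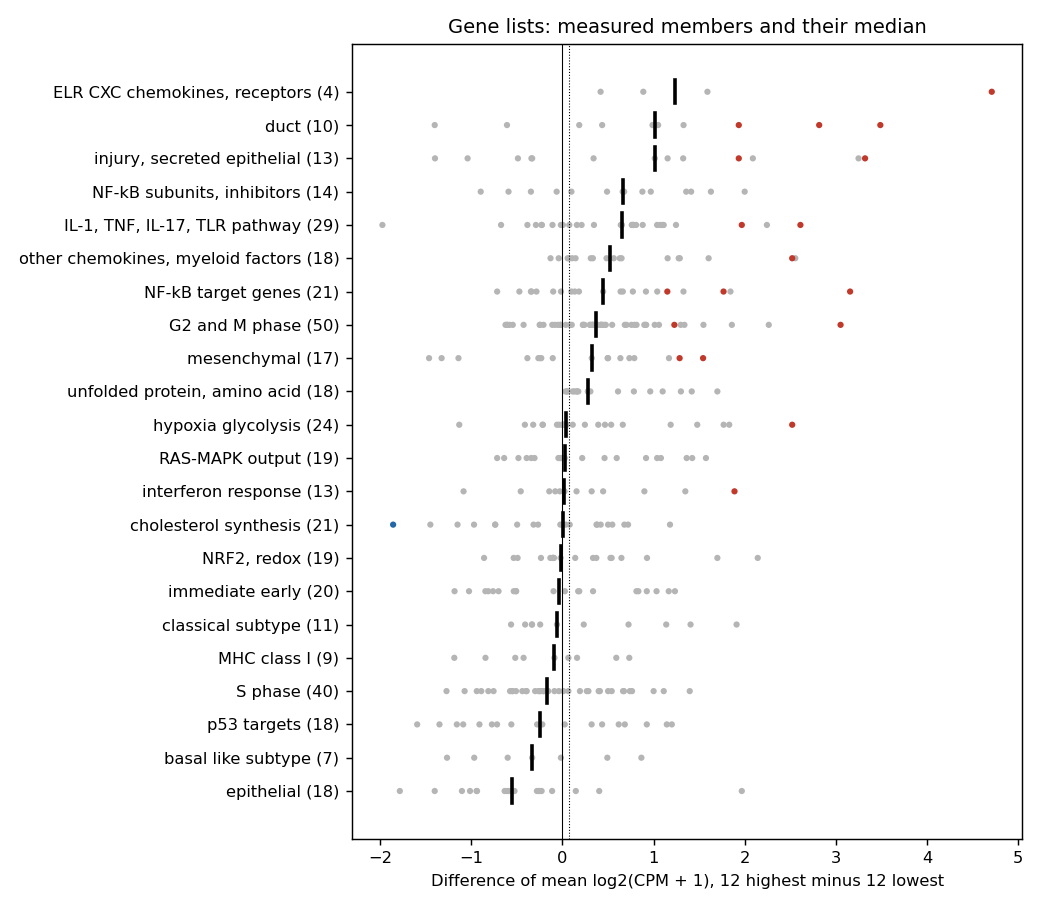
Each point is 1 measured gene of a list, placed by its difference of mean log2(CPM + 1) between the Cxcl5-high and Cxcl5-low cells; red and blue points were called higher and lower, the black tick is the list's median, the dotted line is the median of all measured genes (0.07), and the number of measured genes stands in brackets. The ELR, duct and injury lists have the highest medians and the epithelial list the lowest.

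Of 50 measured G2 and M phase genes 36 had a positive difference, against 6650 of all 12011 genes, with a median of 0.36. Of the 50, 2 were called higher, beside 1.73% of all genes. Ckap2l, a protein of the mitotic spindle, was above 0 in 12 and 9 cells at 7.80 ± 1.35 and 4.75 ± 3.76, and its relative Ckap2 stood at 6.97 ± 0.75 and 5.74 ± 1.6. Neither call held when the S phase and G2-M means were regressed out. In that setting the list's median was -0.03. Ncapd2 had the most negative difference, -0.62. Of 40 measured S phase genes 16 were positive, with a median of -0.17 that became 0.19 under spike-in scaling, and none was called, with Exo1 (1.40) and Ccne2 (-1.27) at the ends.

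The remaining programs held few calls, beside 1.73% of all genes called higher and 0.849% called lower. All 18 measured genes of the unfolded protein and amino acid response had a positive difference, but the median was 0.28 and none was called. Slc7a11, the cystine transporter, had the largest, 1.70. Among 24 hypoxia and glycolysis genes only Vegfa was called, and Pdk1 had the most negative value, -1.13. Among 21 cholesterol synthesis genes only Tm7sf2, a sterol reductase, was called, lower, at 3.45 ± 2.37 and 5.31 ± 2.13, a call met in 11 of 24 comparisons with 1 cell left out and in 8 of 13 other settings. Hmgcs1 had the largest positive difference there, 1.18. Among 13 interferon response genes only Ifi35 was called, higher, at 5.54 ± 1.17 and 3.65 ± 2.62 (17 of 24 comparisons with 1 cell left out), and Irf9 had the most negative value, -1.09. No immediate early gene was called of 20, where Fosl1 (1.23) and Jun (-1.18) were the ends, and none of 19 RAS-MAPK output genes, where Spry1 (1.57) and Ccnd1 (-0.72) were.

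Neither of the tumour subtype lists held a call, beside 1.73% of all genes called higher and 0.849% called lower. At those shares, lists as short as the ones in this paragraph would hold few calls or none. Of 11 classical subtype genes 5 were positive, from Gata6 at -0.56 to Clrn3 at 1.91. Of 7 basal-like genes 2 were positive, from Sprr1a at -1.27 to Itga6 at 0.87. No p53 target of 18 was called (Bbc3 1.2, Aen -1.59), no class I antigen presentation gene of 9 (H2-T23 0.73, H2-M3 -1.19) and no NRF2 or redox gene of 19 (Abcc1 2.14, Nqo1 -0.86).

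No marker of another cell type was called, beside 2.58% of all genes called in either direction. The markers above 0 in all 24 compared cells were Cxcr2, Csf3r and Pax6. In the 24 compared cells 7 of 12 immune markers with a row were at 0, among them Cd3e, Csf1r and Cd74, and the summed level ran from 0 to 29.2 CPM in the Cxcl5-high and from 0 to 33.5 in the Cxcl5-low cells. It was mostly Cd68, above 0 in 2 cells of each group, while Itgam stayed under 1 CPM. Of 7 neutrophil markers 4 were at 0, S100a8, S100a9, Mpo and Ngp. Their sum, 2.97 to 70.1 CPM and 5.97 to 57.2 CPM, was mostly Cxcr2, with Csf3r at 1.25 ± 0.86 and 1.17 ± 0.71. Of 10 fibroblast markers 6 were at 0, with sums of 0.275 to 75 and 0.136 to 3.65 CPM, and Col1a1 and Acta2 were found in most cells at medians under 0.3 CPM. The 75 CPM was in library 50, which also held the 29.2 CPM immune sum. Col1a1 stood at 0.781 CPM and Acta2 at 0 in that library, so other markers made up the 75 CPM. Of 10 endothelial markers 6 were at 0, with sums up to 74.4 and 215 CPM that came mainly from Egfl7, while Flt1 was found in 1 cell of each group. Of 6 acinar markers 2 were at 0, with sums up to 32 and 42.3 CPM, and Prss2 was found in 4 cells of each group and Bhlha15 in 3 and 5. Of 4 islet markers 2 were at 0, with sums of 0.545 to 2.20 and 0.439 to 72.1 CPM from Pax6, and Chga was found in 1 cell of each group. Library 14 of the Cxcl5-low cells held both the 72.1 CPM islet and the 215 CPM endothelial sum. Whether libraries 14 and 50 held more than 1 cell was not tested.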

How the data were processed

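The authors deposited estimated counts per gene symbol. The submitters' processing notes name kallisto and mm9. Which version and annotation were used, and how transcripts were summed to genes, was not stated. Whole numbers, within 1e-06, made up 66.18% of the values above 0. The table had 19112 gene rows and 65 spike-in rows, which stayed out of library sizes. Altered symbols were restored against RefSeq and GENCODE names (17937 as given, 1097 restored, 78 unmatched). No 2 libraries were identical. The 12 left-out libraries had spike-in shares of 22.3% or more.

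From the unrounded estimated counts, CPM and log2(CPM + 1) were computed with Python 3.11.15, numpy 2.4.6, pandas 2.3.3 and scipy 1.17.1. TMM sizes came from edgeR 4.0.16 in R 4.3.3, and no count model was fitted. Thinning rounded the counts first. The code of the comparison was run on simulated counts with planted changes. Those counts were drawn with the same spread for every gene, so they give no rate of false calls in the real cells. No doublet caller was run. Reads carry no molecular identifiers, so intervals and floors cover counting error and the sampling of cells only. The intervals treat cells as random draws, although the groups were chosen by rank. Counting is not stated to use strand, so overlapping genes cannot be told apart.

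The groups, the 28 gene lists and the call rule were chosen with earlier results of these data known. Named genes were the 15 largest differences in each direction among called genes outside predicted or unmatched symbols, the whole ELR list, the ends of every other program list, the 5 highest and 5 lowest rho over the intermediate cells, and the 2 most often detected markers of each other cell type. Any other gene was named after its value was seen. Alternatives were another pseudocount, filter, scaling and group size, thinning, regression on detected genes or on cell-cycle means, centring by label block, the ratio of mean CPM, and leaving out each compared cell. A further spike-in scaling with the groups rescaled to a common median was added after seeing the data.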

Additional observations from a re-analysis of the deposited data

Results flagged for a closer look

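Cxcl5 counts also appeared in 2 of the 12 libraries left out for their spike-in share, where the comparison made no use of them. Library 43, with a spike-in share of 71.1% and 389192 gene counts, held 115 Cxcl5 counts, or 295.5 CPM. Library 56, with a share of 22.3% and 1133750 gene counts, held 475 counts, or 419 CPM. By these values they would take ranks 24 and 19, among the intermediate cells and outside both groups. Library 43 also held Cxcl3, at 33.4 CPM, and library 56 did not. Cxcl5 was at 0 in the other 10 left-out libraries, where a count of 0 allows up to 2.80 to 26.7 CPM.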

How the results depend on the processing

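The main counts of 208 genes higher and 102 lower moved most with group size and scaling. They were 686 and 238 for 8 against 8 cells, 87 and 35 for 16 against 16, and 440 and 25 under spike-in scaling. Of the 102 genes called lower, 25 were still called under spike-in scaling, and of the 208 called higher, 198. With the groups rescaled to a common spike-in median the counts were 162 and 78. Centring the label blocks gave 339 and 101, of which 142 and 52 were shared with the main calls. Regressing out detected genes gave 174 and 142, and regressing out the cell-cycle means 221 and 148. Leaving out 1 cell at a time gave 210 to 260 higher and 95 to 134 lower. Of the genes called higher, 128 met the call with any 1 cell left out, 42 in all 13 other settings and 41 in both. Of those called lower these numbers were 47, 7 and 7. Cxcl3, Mgst1, Fam20b, Tmem176a, Tmem176b, Sord, Stat6, Irak2, Cebpd, Sox9, Arhgdig, Aim1 and Fem1a were among those called in every setting. Ehf, Enpp2, Aspa and Vegfa lost the call with 16 against 16 cells, and Trf under TMM sizes and when detected genes were regressed out. Smad4 lost it in 7 of the 13 settings. The cause of these changes was not tested. No paired analysis was possible because all libraries belong to 1 culture and 1 labelled group, so no numbers pair the cells. Low values limit the single-cell reading: a gene listed at 0 in a cell may be below what amplification and depth could detect.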

Other observations

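Of 13 measured genes of the interferon response list 1 was called higher, beside 1.73% of all genes, and the list's median difference was 0.02. The 7 called genes that follow are not on it, were picked after their values were seen, and stand for no pathway. The chains of the type I interferon receptor were both called higher, Ifnar1 at 5.23 ± 1.40 and 3.73 ± 1.13 (SD, n = 12 each) and Ifnar2 at 5.64 ± 0.69 and 3.40 ± 2.61. Trim25, a ubiquitin ligase of the RIG-I pathway, stood at 5.19 ± 1.14 and 2.07 ± 2.23, and Irf2 at 5.49 ± 0.81 and 4.06 ± 1.46. Samd9l was above 0 in 10 and 4 cells, and Herc6 in 8 and 2. AW112010, an interferon-inducible transcript of immune cells, ran from 54.4 to 174 CPM in the Cxcl5-high and from 0 to 81.3 CPM in the Cxcl5-low cells, with 95.1% of pairs in that order. Over the intermediate cells rho with Cxcl5 was 0.11 for AW112010, 0.07 for Ifnar2, -0.02 for Ifnar1, -0.19 for Trim25 and -0.35 for Samd9l. None of these followed Cxcl5 upward by much, and no rho is given for Irf2 or Herc6.

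Other called genes were likewise picked one by one after their values were seen. Cldn2, which forms cation pores in leaky epithelia, was above 0 in 12 Cxcl5-high and 6 Cxcl5-low cells at 5.70 ± 1.82 and 2.58 ± 3.09, and its rho over the intermediate cells was 0.38. Cldn18 was above 0 in every compared cell and was called lower, at 7.26 ± 0.84 and 8.35 ± 0.89. That call was met in 20 of 24 comparisons with 1 cell left out and in 9 of 13 other settings. Ghr, the growth hormone receptor, was above 0 in 6 Cxcl5-high cells and at 0 in every Cxcl5-low cell, with 1665 counts against none. Its share of the pooled gene counts was at least 723-fold higher by the floor of 3 counts over the group, in reads only. The Ghr call was met in 18 of 24 comparisons with 1 cell left out and in 8 of 13 other settings. Lifr, a receptor chain for leukaemia inhibitory factor, stood at 2.92 ± 2.22 and 0.87 ± 0.78. In the opposite direction, Smarcb1, a core subunit of the BAF chromatin remodelling complex, stood at 5.0 ± 1.91 and 6.73 ± 0.35, with the Cxcl5-high cell above in 6.94% of pairs.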
